A study of Homo sapiens with 4 samples.

Results

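Knockdown of SCD1 in UMUC3 cells was described from every gene with at least 1 CPM in either of 2 RNA-seq libraries, where CPM is a gene's reads per 1000000 reads of its library. By that rule 14063 genes were measured, of 30148 in the UMUC3 table and 32485 in either table of the series. UMUC3 is a human bladder cancer cell line, grown in MEM with serum. The shNT group is labelled with the genotype WT, and the shSCD1 group with SCD1 knockdown, made with a lentivirus. Neither the hairpin sequences nor the number of hairpins, clones or cultures behind a library is given in the sources used here. The series also holds the same pair of groups in SW780, a second bladder cancer line, so it has 4 libraries in all.

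With 1 library in each group, UMUC3 allows no test, and every difference below is one between 2 libraries that lack replicates. A log2 ratio is log2 of shSCD1 CPM + 1 over shNT CPM + 1, which understates changes of genes with few reads. A gene is called higher or lower when this ratio passed 1 in size, which is 2-fold. Folds are plain ratios of CPM, with exact Clopper-Pearson 95% intervals that cover counting error only. The shNT library held 22818368 reads and the shSCD1 library 32540576, so that 0 reads still allow up to 3, or 0.131 and 0.0922 CPM. Folds given with "at least" set the library with 0 reads at 3 and leave out the counting error of the other library. They are not ends of the exact interval, which are smaller, for example 37.95 against 47.5 for RAET1E. The file headers number the libraries first and second. The first was taken as shNT and the second as shSCD1 from the order of the UMUC3 labels and the name of the table, and every direction would turn round if that order were the other way.

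Stearoyl-CoA desaturase, called SCD1 in the labels and SCD as a gene, puts the first double bond into saturated fatty acyl chains. Its products, oleate and palmitoleate, go into membrane phospholipids, triglycerides and cholesterol esters. Its transcription is driven by the sterol-regulated factors SREBP1 and SREBP2, and proliferating tumour cells use it together with fatty acid synthase to make membrane.

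Sequences upstream of the RefSeq start of 6 genes are shown, for the targeted gene and for lists whose factors bind a known motif (interferon response, YAP and TEAD targets, DNA replication). They come from RefSeq on GRCh38.p14, read 5′ to 3′ on the strand of the gene. By the GENCODE 29 positions the GBP1 and LGALS3BP stretches lie inside the gene, so only 30 bases around the match are shown there. Capitals mark matches, on either strand, to CCAAT in SCD, to TTTC followed by any 2 bases and TTTC (the interferon-stimulated response element, ISRE) in GBP1 and LGALS3BP, to GGAATG (bound by TEAD factors) in ANKRD1 and NUAK2, and to TTTNNCGC (bound by E2F factors) in E2F2. The stretches are chr10:100346983-100347123 on the plus strand for SCD, and on the minus strand chr1:89065316-89065345 for GBP1, chr17:78979962-78979991 for LGALS3BP, chr10:90921277-90921337 for ANKRD1, chr1:205321792-205321995 for NUAK2 and chr1:23531234-23531483 for E2F2.
SCD: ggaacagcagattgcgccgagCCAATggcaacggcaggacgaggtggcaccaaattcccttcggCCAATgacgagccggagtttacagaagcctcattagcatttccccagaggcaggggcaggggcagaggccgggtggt
GBP1: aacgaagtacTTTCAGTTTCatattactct
LGALS3BP: gtggtttctgGAAATCGAAAgtagactctt
ANKRD1: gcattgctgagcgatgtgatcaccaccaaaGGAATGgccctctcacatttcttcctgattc
NUAK2: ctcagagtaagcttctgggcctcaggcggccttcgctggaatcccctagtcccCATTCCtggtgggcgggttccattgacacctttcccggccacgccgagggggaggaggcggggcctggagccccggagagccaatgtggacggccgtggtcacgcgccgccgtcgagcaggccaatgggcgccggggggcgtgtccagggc
E2F2: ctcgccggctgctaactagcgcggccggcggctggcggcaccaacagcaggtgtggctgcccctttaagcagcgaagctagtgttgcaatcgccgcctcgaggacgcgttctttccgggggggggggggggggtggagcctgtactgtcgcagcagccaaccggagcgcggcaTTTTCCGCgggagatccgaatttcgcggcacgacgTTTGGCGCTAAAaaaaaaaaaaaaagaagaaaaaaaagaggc

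The E2F2 stretch holds 3 matches, of which 2 overlap each other. Motifs were also counted over the whole 300-base window of each promoter in the RefSeq table, from 250 bases before to 50 after the start, each motif on its own, so that matches of different motifs may overlap. The table held a promoter for 219 of the genes called higher, 195 of those called lower and 9729 of those under 2-fold. The ISRE was in 10.8% of the promoters of genes called lower, 2.74% of those called higher, 3.78% of those under 2-fold and 3.57% of all 35116 promoters. For the E2F motif the shares were 5.64% in genes called lower, 12.3% in those called higher, 13.6% under 2-fold and 6.89% in all promoters. The TEAD motif was in 16.9% of promoters of genes called lower and 11.4% of those called higher, beside 15% under 2-fold and 14% in all promoters. CCAAT was in 43.6%, 42.5%, 43.8% and 34.6%, so it separated the called genes little from the rest. The AP-1 motif TGANTCA, bound by FOS and JUN factors, was in 12.8% of promoters of genes called lower, 6.85% of those called higher, 6.77% under 2-fold and 7.71% of all. The NF-kB motif was in 9.23% of promoters of genes called lower, 11.9% of those called higher, 8.93% under 2-fold and 5.91% of all. The motif TCACNCCAC, bound by SREBP factors, was in 2.05%, 2.74%, 1.32% and 1.13%, with 4 genes called lower and 6 called higher. The CArG motif, bound by SRF, was in 1.54%, 1.37%, 1.54% and 1.29%. A match says only that these letters are in the window.

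Of the 14063 measured genes 347 (2.47%) were higher and 306 (2.18%) lower in the shSCD1 library, so 4.64% passed 2-fold in either direction. Counts of called genes in the lists below are to be read beside these shares. After centring on the median gene, 308 were higher and 328 lower, which turns the larger side round. The other 95.4% lay under 2-fold, with a median log2 ratio over all genes of 0.04 and a range from −0.69 to 0.79 between the 5% and 95% points. Larger differences were more often decreases: 51 genes were at least 4-fold lower and 21 at least 4-fold higher, and 12 against 6 passed 8-fold. In bulk libraries such as these, fewer cells of a state and less RNA per cell cannot be told apart. Called genes were mostly of low or middle abundance. Among 2272 genes with a mean of at least 100 CPM, 5 (0.22%) were higher and 19 (0.836%) lower, whereas among 1513 genes between 2 and 5 CPM the shares were 6.68% and 6.08%. At the edge of the rule for being measured, GDPGP1 was just inside with 23 and 21 reads, and KIAA0319 just outside with 0 and 32 reads.

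**Figure D1:**
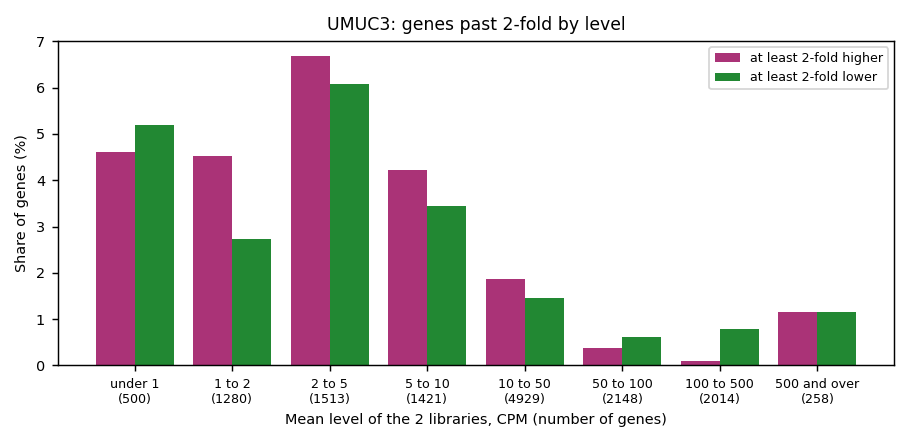
Share of measured UMUC3 genes called higher (purple) or lower (green) by 2-fold, in percent, for 8 classes of mean CPM, with the number of genes in each class. The shares are highest between 2 and 5 CPM (6.68% and 6.08%) and fall under 1.2% above 50 CPM.

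The targeted gene was lower, which is the only check on the order of the columns. SCD had 6033 and 1938 reads, 264 CPM with shNT and 59.6 with shSCD1, which is 4.44-fold lower (4.22 to 4.68) at a log2 ratio of −2.13. No other gene of the desaturation step stood out. SCD5, the second human stearoyl-CoA desaturase, stood at 18.3 and 22.2 CPM. FADS1, the delta-5 desaturase of polyunsaturated fatty acids, went from 148 to 218 CPM (log2 ratio 0.56), and FADS2, the delta-6 desaturase, from 14.4 to 12.4 CPM. Of 23 measured genes for fatty acid synthesis and desaturation, SCD was the only one called lower and 2 elongases were called higher. ELOVL4, which extends very long chains, went from 2.06 to 6.02 CPM, 2.92-fold higher (95% interval 2.12 to 4.11). ELOVL7 went from 9.69 to 20.6 CPM. FASN, the fatty acid synthase itself, stood at 123 and 174 CPM, a log2 ratio of 0.50.

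Sterol genes, which share SREBP control with SCD, lay a little above 0 with none past 2-fold. Of 25 measured cholesterol genes 17 had a ratio above 0, and the median was 0.15. The highest after HMGCS1 was SC5D, a late enzyme of cholesterol synthesis, at 66.3 and 100.5 CPM. SQLE, a rate-limiting epoxidase, stood at 104 and 143 CPM. The regulators themselves hardly moved: SREBF1 stood at 24.9 and 25.1 CPM, and SREBF2 at 212 and 216 CPM.

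Genes that activate and oxidise fatty acids leaned the other way, with 22 of 31 below 0 and a median of −0.16. Those called were few and weakly expressed. ACSL5, an acyl-CoA synthetase, had 35 reads with shNT and 4 with shSCD1. SLC27A2, a fatty acid transporter and activating enzyme, had 0 reads with shNT and 48 with shSCD1, at least 11.2-fold higher. ACOX2, a peroxisomal oxidase for branched chains and bile acid precursors, went from 4.78 to 11.2 CPM, 2.35-fold higher (1.89 to 2.94). CPT1A, the gate of fatty acid entry into mitochondria, stood at 188 and 169 CPM. Of 38 genes for glycerolipids and lipid droplets only G0S2, an inhibitor of the triglyceride lipase ATGL, was called, at 10.0 and 22.8 CPM (2.27-fold, 1.95 to 2.64). LPCAT1, which remodels phosphatidylcholine with saturated chains, came next at 29.3 and 56.0 CPM. None of 25 sphingolipid genes and none of 26 genes of ferroptosis defence and iron handling passed 2-fold. GPX4, which reduces lipid peroxides, stood at 99.0 and 106 CPM, and SLC7A11, the cystine carrier, at 264 and 372 CPM.

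The 30 highest and 30 lowest ratios among well-annotated protein-coding genes of at least 5 CPM are drawn in the plot of both ends, apart from 1 high gene. The low side is described first. TCF21, a transcription factor of mesenchymal development, went from 613 reads to 100 (26.9 and 3.07 CPM, 8.74-fold lower, 7.07 to 10.9), although 30.4% of its exonic bases overlap another gene. MFAP5, a glycoprotein of microfibrils, went from 9.38 to 0.615 CPM. CRISPLD2, a secreted cysteine-rich protein, went from 12.1 to 1.08 CPM (11.2-fold lower, 7.89 to 16.5). ADAMTS12, a secreted metalloprotease, went from 17.97 to 2.67 CPM. ATP8B1, a flippase that moves phospholipids between membrane leaflets, was the most abundant of the 30 after SCD, at 237 and 54.8 CPM (4.33-fold lower, 4.10 to 4.57). MYO5B, a myosin motor of recycling endosomes, went from 16.7 to 2.70 CPM. PROM2, a protein of membrane protrusions, went from 7.98 to 0.615 CPM, and MEGF6, a protein with repeats like those of epidermal growth factor, from 11.3 to 1.88 CPM. SPANXB1, a cancer-testis antigen, stood at 27.4 and 5.53 CPM, and CALB2, the calcium buffer calretinin, at 12.6 and 2.21 CPM.

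**Figure D2:**
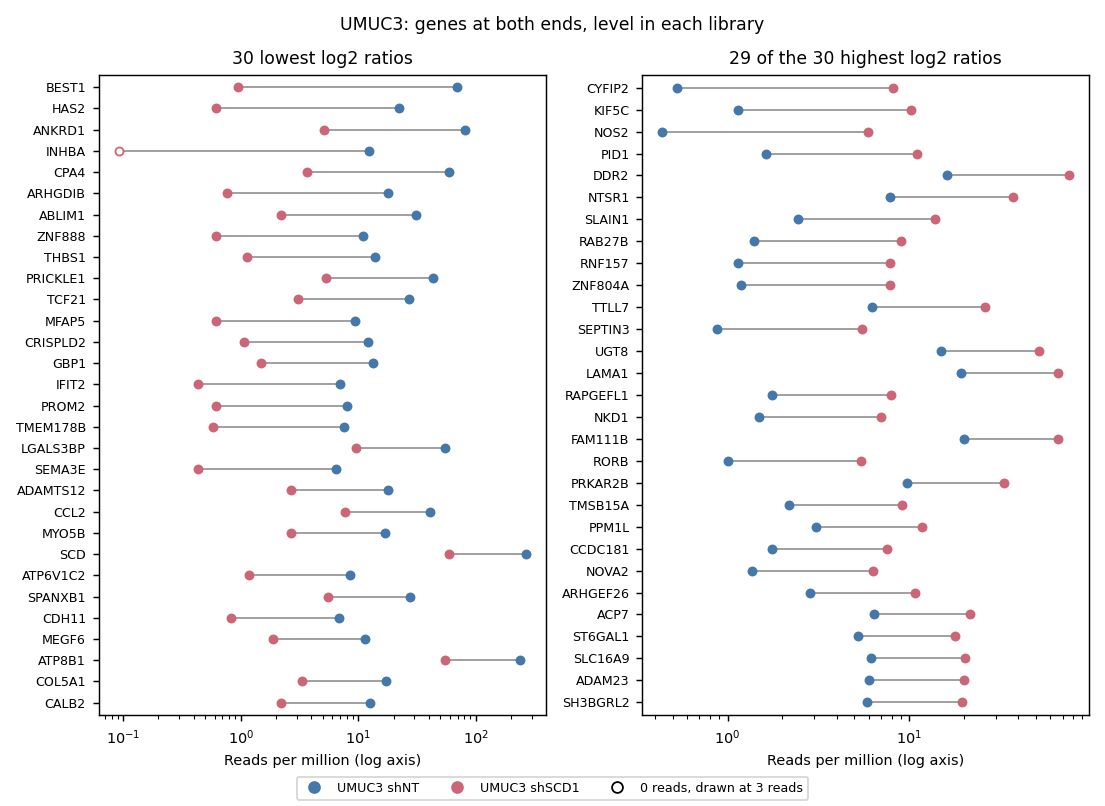
CPM on a log axis in the shNT (blue) and shSCD1 (red) libraries for the 30 protein-coding genes with the lowest (left) and 29 of the 30 with the highest log2 ratios (right), 1 library each, with no error bars. Most of the genes on the right are below 10 CPM in the shNT library, and INHBA, with 0 reads in the shSCD1 library, is drawn at 3 reads.

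On the high side the genes were less abundant in the shNT library and the ratios smaller, with the thirtieth at 1.57 against −2.08 for the thirtieth lowest. UGT8, which makes galactosylceramide, the myelin lipid, went from 14.9 to 51.9 CPM (3.48-fold higher, 3.09 to 3.92). LAMA1, a laminin chain of basement membranes, went from 19.2 to 65.7 CPM (3.42-fold, 3.09 to 3.80). FAM111B, a serine protease gene, went from 19.98 to 65.95 CPM. PRKAR2B, a regulatory subunit of protein kinase A, went from 9.77 to 33.3 CPM, and TTLL7, a tubulin polyglutamylase, from 6.22 to 26.3 CPM. RAB27B, a GTPase of secretory vesicles, went from 32 reads to 293 (1.40 and 9.004 CPM, 6.42-fold, 4.45 to 9.56). SEPTIN3, a neuronal septin, went from 0.877 to 5.501 CPM. ST6GAL1, which caps glycans with sialic acid, went from 5.26 to 17.8 CPM, and SLC16A9, a carrier of the monocarboxylate family, from 6.18 to 20.4 CPM. RORB, an orphan nuclear receptor, had 23 and 176 reads.

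Interferon-response genes formed the list with the most called members. Of 39 measured genes 14 were lower and none higher, a share of called genes to be read beside the 2.18% of all genes, and the median was −0.53. Some of the lower genes lie in families and side by side. GBP1, GBP2 and GBP3, guanylate-binding proteins that attack vacuoles of pathogens, occupy chr1:89006666-89150456 as 3 neighbouring measured genes that were all lower. GBP1 had 303 reads with shNT and 48 with shSCD1, 9.002-fold lower (6.62 to 12.5). IFIT1, IFIT2 and IFIT3, which bind foreign RNA, are another such run, at chr10:89283694-89406486. IFIT3 went from 5.96 to 1.48 CPM and IFIT1 from 5.30 to 1.54 CPM. LGALS3BP, a secreted glycoprotein that binds galectins, was the most abundant of the called members, at 55.1 and 9.50 CPM (5.80-fold lower, 5.12 to 6.59). DDX60, a helicase that helps sensing of viral RNA, went from 19.8 to 6.48 CPM, and SAMD9, a restriction factor of poxviruses, from 23.8 to 9.83 CPM. IFI44 stood at 7.89 and 2.27 CPM, and SP110, a nuclear body protein, at 8.11 and 2.74 CPM.

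Transcription factors of the response stayed within 2-fold. STAT2 stood at 15.1 and 18.6 CPM, IRF9, its partner in the factor ISGF3, at 1.36 and 1.69 CPM, and IRF1 at 6.31 and 7.22 CPM. IFIT5, the IFIT member that binds tRNA-like RNA, was the highest of the list at 14.2 and 20.5 CPM. Thus members of 1 family lay on both sides of 0. An ISRE was in the promoter of 23 of the 33 members in the RefSeq table: 9 of these 23 were lower, against 2 of the 10 without a match, while the medians were −0.48 and −0.55.

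Antigen presentation followed at smaller size. Of 21 measured genes of MHC class I presentation 18 were below 0, the median was −0.49, and 1, the immunoproteasome subunit PSMB9, was called. Its partners PSMB10 and PSMB8 stood at 6.57 and 2.86 CPM and at 12.9 and 6.82 CPM. B2M, the light chain common to all class I molecules, stood at 248 and 162 CPM (log2 ratio −0.61). TAP1, the peptide transporter, was at 19.8 and 20.9 CPM, so it did not share the direction. RAET1E, a ligand of the killer cell receptor NKG2D, had 100 reads with shNT and 0 with shSCD1, at least 47.5-fold lower, with 35.8% of its exonic bases shared with another gene.

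Of 26 cytokine, chemokine and NF-kB genes 5 were lower and none higher, beside 2.18% and 2.47% of all genes, with a median of −0.21. CCL2, which attracts monocytes, had 929 and 249 reads. IL32, a cytokine without a rodent counterpart, went from 20.6 to 7.10 CPM (2.90-fold lower, 2.47 to 3.41). CSF1, the macrophage growth factor, went from 29.9 to 13.8 CPM (2.17-fold, 1.92 to 2.45). IL34, the other ligand of the CSF1 receptor, had 29 reads and 0, at least 13.8-fold lower. The core of NF-kB signalling stayed within 2-fold: NFKBIA, the inhibitor, stood at 60.3 and 53.7 CPM, NFKB1 at 48.1 and 60.4 CPM, and BIRC3, a target, at 308 and 350.5 CPM. C3, the central component of complement, was lower too, from 5.52 to 1.94 CPM. SERPINE2, a protease inhibitor, was higher, at 17 and 131 reads.

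**Figure D3:**
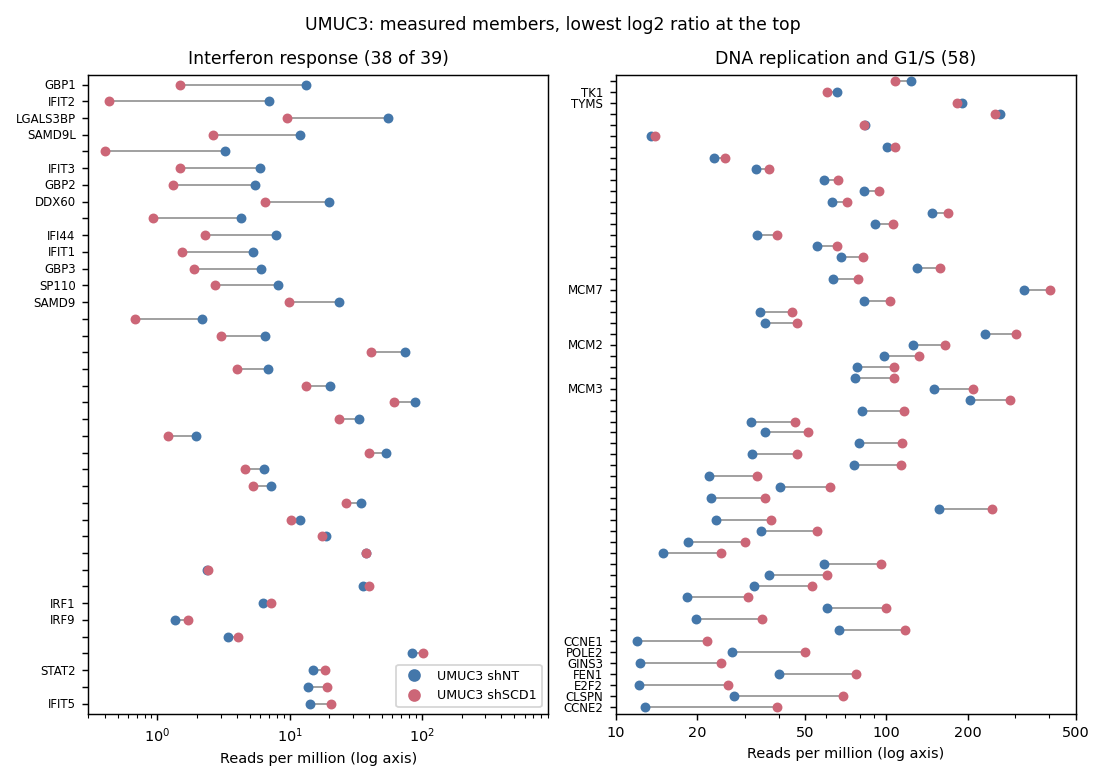
CPM on log axes in the shNT (blue) and shSCD1 (red) libraries for 38 of the 39 measured genes of the interferon response (left) and all 58 of DNA replication and G1/S (right), in order of log2 ratio, 1 library each, with names for genes given in the text. On the left the shSCD1 level lies below the shNT level for 28 genes, and on the right it lies above for 53.

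Genes of DNA replication were shifted upward as a body. Of 58 measured genes 53 had a ratio above 0 and the median was 0.48, against 0.04 for all genes, but only 3 passed 2-fold. CCNE2, the cyclin that drives entry into S phase with CDK2, had 292 reads with shNT and 1280 with shSCD1, 3.07-fold higher (2.71 to 3.50), with 37.1% of its exonic bases shared. CLSPN, which relays the replication checkpoint, had 621 and 2242 reads, and E2F2, a transcription factor of G1/S genes, 277 and 843 reads. Just under 2-fold were FEN1, the flap endonuclease, at 40.0 and 77.4 CPM, GINS3, of the replicative helicase, at 12.3 and 24.5 CPM, and POLE2, a subunit of DNA polymerase epsilon, at 26.8 and 50.1 CPM. CCNE1, the paralogue of CCNE2, stood at 12.01 and 21.8 CPM. The helicase subunits MCM2 to MCM7 all lay between log2 ratios of 0.29 and 0.48, for example MCM3 at 150 and 209 CPM. TYMS and TK1, which make thymidylate, were not above 0, with log2 ratios of −0.06 and −0.13.

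The E2F motif was in 27 of the 48 promoters of these genes in the RefSeq table, and the medians with and without it were 0.49 and 0.52. Mitotic genes did not share the shift: 32 of 54 were below 0, none passed 2-fold and the median was −0.08, with TOP2A at 966 and 905 CPM. CCND1, the G1 cyclin, stood at 349 and 477 CPM, and CDKN1A, the p21 inhibitor, at 35.1 and 42.5 CPM. Histone genes whose messages are made in S phase went the opposite way from the replication genes. Of 57 such genes 23 were measured, 22 of them below 0, and the median was −0.71. H2AC6 was 4.02-fold lower (3.49 to 4.63), with 763 and 271 reads. H1-2, a linker histone, went from 14.1 to 5.56 CPM, H2BC9 from 5.61 to 2.24 CPM and H2BC5 from 7.85 to 3.38 CPM. Their summed level was 120 CPM with shNT and 55.4 with shSCD1. These messages end in a stem-loop and mostly carry no poly(A) tail, and how RNA was selected for the libraries is not given in the sources used here, so the part of RNA selection in this result was not tested.

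Matrix and mesenchymal genes made up the next large body of decreases. The UMUC3 libraries held markers of both kinds. All 8 mesenchymal markers were measured, from VIM at 2794 and 2254 CPM and ZEB1 at 233 and 242 CPM down to TWIST1 at 2.72 and 1.38 CPM. Of 15 urothelial and epithelial markers 6 were measured, led by KRT18 and KRT8, KRT19 had no read, and CDH1 and EPCAM were not in the table used here. Of 30 measured mesenchymal genes 7 were lower and none higher, beside 2.18% and 2.47% of all genes. Of the 30, 24 were below 0, and the median was −0.63. CDH11, a cadherin of mesenchymal cells, had 156 and 27 reads (8.24-fold lower, 5.45 to 12.9). SNAI2, a repressor of epithelial genes, stood at 4.43 and 1.51 CPM. WNT5A, a non-canonical Wnt ligand, went from 27.9 to 13.2 CPM. Just under 2-fold were LOXL2, a collagen crosslinker, at 311 and 164.5 CPM, and FN1, fibronectin, at 13.9 and 7.07 CPM. ZEB1 and SNAI1 (2.50 and 4.27 CPM) did not follow.

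Most epithelial genes were low in both libraries. The summed level of the urothelial and epithelial markers was 536 CPM with shNT and 263.5 with shSCD1, nearly all of it from a pair of keratins. KRT18 went from 372 to 170 CPM (2.19-fold lower, 2.12 to 2.27) and its partner KRT8 from 148 to 78.3 CPM. KRT7 stood at 4.43 and 1.26 CPM. Of 15 epithelial genes 2 were lower and CYP2J2, an epoxygenase of arachidonic acid, was higher, with 14 and 104 reads. Of a short set of 13 markers of blood, endothelial and stromal cells 2 were measured, at a sum of 2.41 and 1.51 CPM, and VWF, CDH5 and LUM had no read in either library. In longer lists the only blood marker measured was CD68, at 67.0 and 47.5 CPM and with 85.8% of its exonic bases shared, and 6 of 20 fibroblast and endothelial markers were measured. All 6 lay below 0, TIE1 and RGS5 among them past 2-fold, and their sum was 34.3 and 18.6 CPM. The part of such cells in the matrix and mesenchymal results was not tested.

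Of 36 laminins and matrix glycoproteins 9 were lower and 2 higher, beside 2.18% and 2.47% of all genes, with a median of −0.35. MATN2, matrilin 2, had 314 and 107 reads (4.18-fold lower, 3.35 to 5.26). IGFBP4, which binds insulin-like growth factors, went from 58.5 to 20.96 CPM, and LAMA2, the laminin chain of muscle, from 4.16 to 0.922 CPM. LAMA1 and SMOC1, a modular calcium-binding protein of basement membranes, were higher, SMOC1 from 48.2 to 126 CPM. Laminin chains therefore lay on both sides, with LAMA5 at 17.5 and 32.7 CPM and LAMC1 at 213 and 182 CPM. Of 17 collagens 15 were below 0 and 3 were called, all lower. COL13A1, a membrane collagen, had 145 and 34 reads, and COL17A1, of hemidesmosomes, 284 and 123 reads. DSE, which turns glucuronic into iduronic acid in dermatan sulphate, was higher at 26.1 and 65.9 CPM (2.53-fold, 2.31 to 2.77), while its relative DSEL was lower at 6.84 and 1.91 CPM. MGP, the matrix Gla protein that hinders calcification, had 53 reads and 0. ITGB2, a leukocyte integrin chain, was the only integrin of 12 called, at 34.6 and 14.5 CPM, and ITGB1, the common chain, stood at 2173 and 2191 CPM.

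Of 49 actin, myosin and related genes 34 were below 0, and the median was −0.22. Past 2-fold were 3 lower and 1 higher, beside 2.18% and 2.47% of all genes. MYH9, the heavy chain of non-muscle myosin IIA, had 28176 and 19376 reads, 1235 and 595 CPM, 2.07-fold lower (2.04 to 2.11). FLNA, which crosslinks actin, stood at 2468 and 1570 CPM (log2 ratio −0.65), and ACTG1 at 3562 and 2603 CPM. The paralogue MYH10 stood at 124 and 121 CPM, and ACTB at 2394 and 2224 CPM, so the shift was not shared by every member.

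Targets of YAP and TEAD, the factors that follow cell tension and Hippo signalling, were 4 lower and 0 higher of 34, with a median of −0.23. Among all genes 2.18% were lower and 2.47% higher. ANKRD1 had 1832 and 165 reads. NUAK2, a kinase that acts on myosin phosphatase, went from 36.4 to 13.9 CPM (2.61-fold lower, 2.32 to 2.93), and RBMS3, an RNA-binding protein, from 6.97 to 2.24 CPM. CCN2, the best known target beside CCN1, stood just under 2-fold at 567 and 293 CPM. The factors themselves did not differ by much: YAP1 stood at 295 and 306 CPM and TEAD1 at 212 and 256 CPM. RefSeq promoters were at hand for 24 of the 34. Among these, 10 held the TEAD motif, with 2 genes lower and a median of −0.49, and 14 did not, with 1 lower and a median of −0.19.

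**Figure D4:**
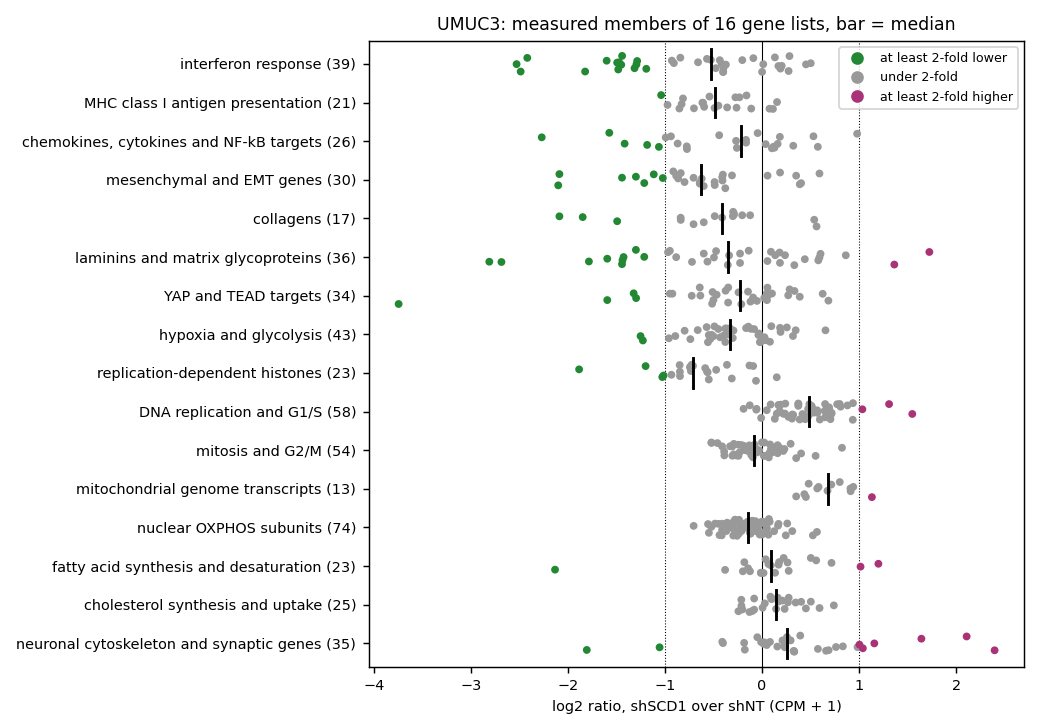
Log2 ratio of shSCD1 over shNT for each measured member of 16 gene lists in UMUC3 (number of genes in brackets), with black bars at the medians and dotted lines at 2-fold. Interferon, mesenchymal and histone genes lie mostly left of 0 (medians −0.53, −0.63 and −0.71), replication genes and mitochondrial transcripts right of it (0.48 and 0.67).

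In the signalling lists few genes passed 2-fold, at shares that for several lists are near the 2.47% higher and 2.18% lower of all genes, so single ligands, receptors and inhibitors are described. In the TGF-beta, activin and BMP pathway 2 of 43 genes were higher and 2 lower, with a median of 0.07. SMAD9, a transducer of BMP signals, stood at 6.79 and 16.01 CPM (2.36-fold higher, 1.97 to 2.84), and CHRD, the BMP antagonist chordin, had 20 and 94 reads. The common transducer SMAD4 stood at 87.0 and 80.9 CPM. In the Wnt pathway 3 of 34 were higher and 3 lower, with a median of 0.04. DKK1, a secreted Wnt inhibitor, had 1742 and 642 reads (76.3 and 19.7 CPM, 3.87-fold lower, 3.53 to 4.24). NKD1, an intracellular inhibitor induced by Wnt, had 34 and 227 reads (4.68-fold higher, 3.25 to 6.93). The receptors FZD6 and FZD8 were higher from almost nothing, with 4 and 51 reads and 8 and 57 reads. CTNNB1, beta-catenin, stood at 229 and 225 CPM.

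Among 46 receptor tyrosine kinases and ligands 4 were higher and 3 lower, with a median of 0.05. ROR1, a receptor for WNT5A, had 885 and 348 reads (38.8 and 10.7 CPM, 3.63-fold lower, 3.20 to 4.12). TIE1, a receptor best known from endothelium, went from 11.7 to 4.36 CPM, and EPHA5 from 7.36 to 2.95 CPM. FGF5, a fibroblast growth factor, was higher at 19.6 and 41.1 CPM, and so were PDGFA, with 13 and 82 reads, and EPHA7, with 6 and 55. The abundant receptors were level: EGFR stood at 216 and 225 CPM and MET at 504 and 495 CPM, whereas AXL stood at 675 and 433 CPM. Of 36 MAPK feedback and early response genes only TGFA, an EGFR ligand, with 90 and 43 reads, and DUSP1, a MAPK phosphatase, at 122 and 59.8 CPM, were called, both lower. Feedback genes lay on both sides, with DUSP5 at 161 and 82.0 CPM, and DUSP4 at 41.0 and 80.7 CPM. In the Notch pathway NRARP, a Notch target that dampens the signal, was the only one of 20 called, with 13 and 109 reads. JAG1, a ligand, stood at 33.9 and 58.9 CPM and HES1, a target, at 6.66 and 11.7 CPM.

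Genes known from neurons gave most of the increases in any list, although all were weakly expressed. Of 35 measured genes of the neuronal cytoskeleton and synapse 27 were above 0, 6 were higher and 2 lower, and the median was 0.26. The shares among all genes were 2.47% higher and 2.18% lower. NOVA2, a splicing factor of neurons, had 31 and 207 reads (4.68-fold higher, 3.20 to 7.07). KIF1A, a motor of synaptic vesicle precursors, had 0 and 40 reads, at least 9.35-fold higher. KIF5A, a kinesin heavy chain, went from 2.72 to 6.45 CPM. The 2 lower genes are adhesion molecules: L1CAM, of growing axons, had 1336 and 522 reads (3.65-fold lower, 3.30 to 4.05), and NLGN1, of synapses, went from 4.91 to 1.84 CPM. Of 37 axon guidance genes SEMA3E was lower with 148 and 14 reads, and NTN4, a netrin of basement membranes, with 206 and 86. The neuropilin receptors of the semaphorins were level, with NRP1 at 12.5 and 15.03 CPM.

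Of 39 ion channel genes 4 were higher and 1, the chloride channel BEST1 (1589 and 31 reads), was lower. Over all genes 2.47% were higher and 2.18% lower. BEST1 had the lowest ratio of the 30 lowest genes, at 69.6 and 0.953 CPM, 73.1-fold lower (51.3 to 108). KCNQ3, a subunit of the M-current channel of neurons, was higher, with 176 and 544 reads. KCNK5, a two-pore potassium channel, had 21 and 124 reads, and CACNB4, a subunit of calcium channels, went from 5.87 to 15.7 CPM. KCNQ5, of the same family as KCNQ3, stood at 82.6 and 72.2 CPM. Soluble guanylate cyclase, the receptor of nitric oxide, was higher through a pair of subunits, GUCY1B1 with 37 and 205 reads (3.88-fold, 2.73 to 5.67) and GUCY1A2 with 60 and 260. PDE1A, a phosphodiesterase that breaks down cyclic nucleotides, was lower, with 109 reads and 3 (51.8-fold, 17.3 to 255), an interval that shows how little 3 reads fix the size.

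Glycolytic genes were lower by less than 2-fold over a broad front. The median of the 43 hypoxia and glycolysis genes was −0.33, 32 lay below 0, and only BNIP3 and SLC2A1 were called. PGK1 stood at 662 and 340 CPM (log2 ratio −0.96), ALDOA at 614 and 353 CPM, LDHA, which makes lactate, at 1786 and 1071 CPM, and GAPDH at 6221 and 4736 CPM. VEGFA and CA12, also targets of hypoxia, stood at 56.7 and 67.9 CPM and at 129 and 162 CPM, and did not follow. In the TCA cycle and one-carbon list IDH1, the cytosolic isocitrate dehydrogenase that makes NADPH, was higher, with 509 and 2184 reads (22.3 and 67.1 CPM, 3.01-fold, 2.73 to 3.32). PC, pyruvate carboxylase, was lower, at 32.3 and 12.6 CPM (2.56-fold, 2.27 to 2.90). ALDH1L2, a mitochondrial folate enzyme, had 16 and 103 reads. IDH2, the mitochondrial counterpart of IDH1, stood at 17.4 and 15.98 CPM.

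The 13 protein-coding transcripts of the mitochondrial genome were all above 0, from MT-CO1 at a log2 ratio of 0.35 to MT-ATP8 at 1.13, with a median of 0.67. MT-CO3, a subunit of cytochrome oxidase, stood at 3435 and 6590 CPM. The ribosomal RNA MT-RNR2 was not among them and lay below 0, at 4986 and 3974 CPM. The share of reads from the mitochondrial genome was 4.23% with shNT and 6.02% with shSCD1. Without them in the totals 382 genes were higher and 303 lower. The 74 subunits of oxidative phosphorylation encoded in the nucleus lay at a median of −0.14, none of them called. The 73 cytosolic ribosomal proteins also lay at −0.14 with none called.

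Few stress genes passed 2-fold, to be read beside the 2.47% higher and 2.18% lower of all genes. Of 34 genes of the integrated stress response ALDH1L2, given above, was higher and DDIT3, the pro-death factor CHOP, lower, with 2699 and 1042 reads (118 and 32.0 CPM, 3.69-fold, 3.44 to 3.97), although 39.6% of its exonic bases overlap another gene. ATF4, its activator, stood at 393 and 461 CPM, and ASNS, asparagine synthetase, at 422 and 770 CPM, so DDIT3 did not move with them. None of 40 genes of the unfolded protein response passed 2-fold, with HSPA5, the chaperone BiP, at 1188 and 850 CPM. Of 20 heat shock genes DNAJB4, a cochaperone, was lower, at 150 and 64.9 CPM (2.32-fold, 2.19 to 2.45), and HSPA1A stood at 26.1 and 27.9 CPM. Of 25 p53 targets 2 were lower. GADD45A, a growth arrest gene, had 3530 and 2090 reads (155 and 64.2 CPM, 2.41-fold, 2.28 to 2.54), while MDM2 stood at 109 and 105 CPM.

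Over all 50 lists, 1439 different genes were measured, of which 45 were higher and 83 lower, beside 2.47% and 2.18% of all measured genes. There were 9 protein-coding genes at 1 CPM or more in the shNT library with no read in the shSCD1 library, and 7 the other way round. Beside those already given, GRIN2A, a glutamate receptor subunit, had 37 reads and 0, and RGS4, which shortens G-protein signals, 30 reads and 0. In the other direction SH3GL2, endophilin A1 of synaptic vesicles, had 0 and 54 reads, LPAR3, a receptor of lysophosphatidic acid, 0 and 43, and VASH2, a tubulin carboxypeptidase, 0 and 39. Each of these is a change of a weakly expressed gene, at least 12.6-fold for SH3GL2 and at least 17.6-fold for GRIN2A.

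Genes that passed 2-fold were sometimes neighbours. Among 11452 pairs of adjacent measured protein-coding genes 31 pairs moved in the same direction and 6 in opposite ones. Of all measured protein-coding genes 2.30% were higher and 2.30% lower. How many pairs called genes would form if placed at random was not worked out. They made 27 runs, 19 lower and 8 higher. A run of higher genes was LCA5, SH3BGRL2 and ELOVL4 at chr6:79484991-79947580. Pairs of related genes among the lower ones were RGS4 and RGS5, SEMA3E and SEMA3A, H2AC6 and H2BC5, SAMD9 and SAMD9L, and CAV1 and CAV2, of which the last pair encodes caveolins.

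The 531 antisense genes had a median of 0.25 and the 467 lincRNA genes one of 0.23, against 0.02 for 11884 protein-coding genes and −0.04 for 401 processed pseudogenes. Whether strand was used in counting is not given in the sources used here, so reads of an antisense gene and its partner cannot be told apart. NRAV, a long RNA that dampens interferon-stimulated genes, had 153 and 645 reads (6.71 and 19.8 CPM, 2.96-fold higher, 2.47 to 3.55). SNHG14, the host transcript of small nucleolar RNAs, went from 18.7 to 43.8 CPM. SNHG8 went the other way, from 59.3 to 25.6 CPM, and RN7SL2, the RNA of the signal recognition particle, from 19.6 to 3.60 CPM. NEAT1, the scaffold of paraspeckles, stood at 567 and 335.5 CPM.

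Beside gene function, ratios moved a little with transcript length. Among the 2384 protein-coding genes with the shortest transcripts the median was −0.06, with 26 higher and 56 lower, and among the 2377 with the longest it was 0.06, with 78 and 63. Spearman's rho across the 11884 protein-coding genes, which are not independent replicates, was 0.106 with length and −0.076 with GC content. The measured histone genes have a median transcript of 1534 bases and the interferon genes one of 3678, against 3334 for the replication genes. The part of length in these results was not tested.

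The same genes were read off in SW780, which has its own pair of libraries. There the order of the columns rests on the name of the table and on SCD, at 592 and 92.1 CPM, and the comparison of directions between lines depends on it. Of the 347 genes higher in UMUC3, 201 were measured in SW780, where 4 (1.99%) were higher and 6 (2.99%) lower. Of the 306 lower genes, 218 were measured, where 11 (5.05%) were higher and 21 (9.63%) lower. Genes lower in both lines included BEST1, at 47.4 and 0.861 CPM in SW780 (log2 ratio −4.70, against −5.18 in UMUC3). DSEL had −1.43 in UMUC3 and −1.52 in SW780, RBMS3 −1.30 and −1.41, and DNAJB4 −1.20 and −1.36. Of all 11152 genes measured in both lines 1.00% were higher and 0.583% lower in SW780, and of all 12880 genes measured in SW780 1.48% and 1.06%, or 2.54% in either direction. Of the 30 highest UMUC3 genes 21 were measured in SW780 and none passed 2-fold there. Of the 30 lowest 23 were measured, of which 4 were lower and 1 higher.

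Several lists had medians on opposite sides of 0 in the 2 lines, a difference that was not tested. Of 38 interferon-response genes measured in both, 28 were below 0 in UMUC3 and 36 above 0 in SW780, with medians of −0.50 and 0.53. Mesenchymal genes lay at −0.64 and 0.62 over 23 genes, of which 13 were below 0 in UMUC3 and above it in SW780. In SW780 10 of the 23 were higher and 3 lower. COL5A1, TNC and TGFBI were lower in both lines, at −2.09 and −1.24, −1.44 and −1.41, and −1.30 and −1.72. SNAI2 and WNT5A, called lower in UMUC3, had 0.05 and 0.41 in SW780. Cholesterol genes lay at 0.15 in UMUC3 and −0.33 in SW780 over 25 genes, of which 16 were above 0 in UMUC3 and below it in SW780. Replication genes were above 0 in both, at 0.48 and 0.14. The 8 histone genes measured in both were below 0 in both, at −0.89 and −0.53.

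**Figure D5:**
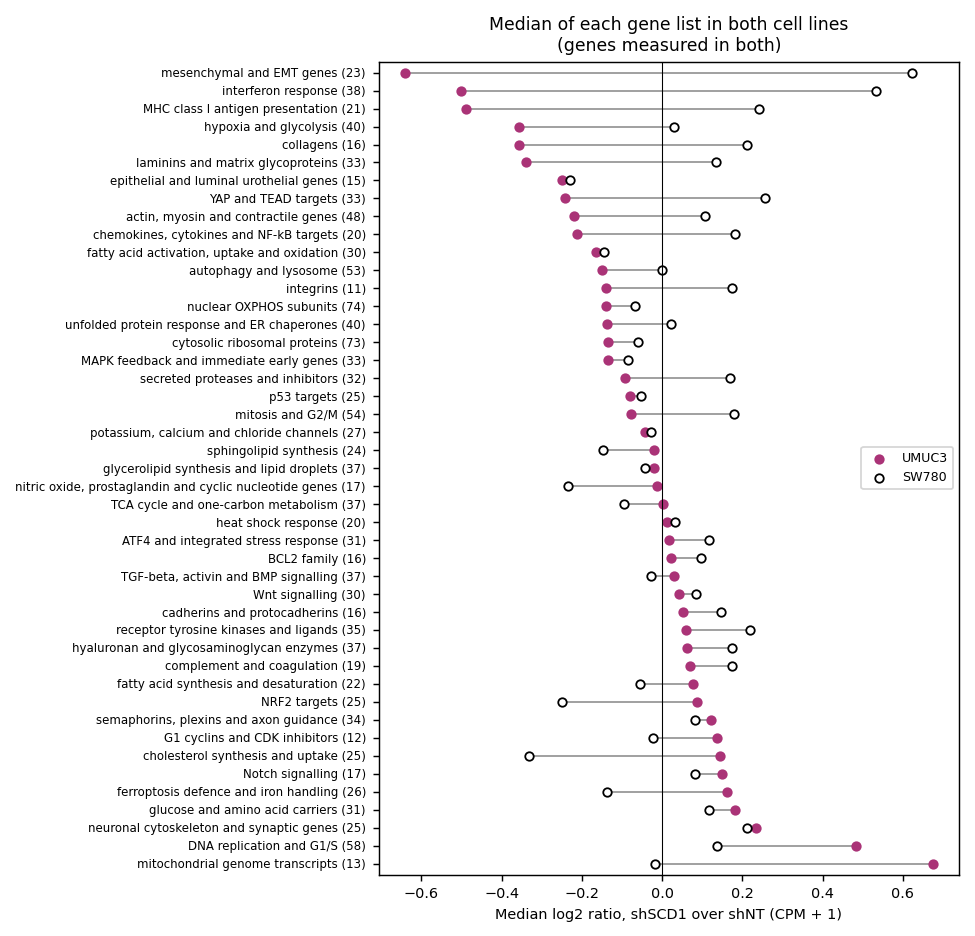
Median log2 ratio of shSCD1 over shNT in UMUC3 (filled) and SW780 (open) for the 45 gene lists with at least 10 genes measured in both lines (number in brackets), 1 library per group. Interferon and mesenchymal genes lie furthest apart (−0.50 and 0.53, −0.64 and 0.62).

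Across both lines, reads were fitted with edgeR's quasi-likelihood test with cell line as a block, which leaves 1 residual degree of freedom. None of 13550 genes passed a Benjamini-Hochberg adjusted p of 0.05, and 418 had an unadjusted p under 0.05. SCD had a log2 fold change of −2.43 with an adjusted p of 0.722 in this test, so the targeted gene did not pass either. Differences in response between the lines enter the error of this fit. A gene that did not pass is therefore not shown to be unchanged. In the authors' deposited table GFOLD, a log2 fold change shrunk by counting error, was on the same side for all 347 higher and all 306 lower genes, and it was at least 1 in size for 187 and 284 of them. GFOLD comes from the same 2 libraries, so the shared side is no independent check.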

How the data were processed

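RNA of UMUC3 and SW780 cells was made into TruSeq libraries and sequenced on a NovaSeq instrument, per the labels' protocols, and hg38 was the build, per the submitters' processing notes. For the aligner, counter, annotation and strand, nothing is given in the sources used here. Per the file headers, the authors deposited for each line 2 columns headed RPKM, a log2 fold change, a GFOLD value (a log2 fold change shrunk towards 0, at a setting of 0.01) and an empirical FDR. The deposited empirical FDR was left out because it equals 1 throughout. The deposited signal in the 2 columns holds no gene length: it is a read count scaled to a total of 50000000, and 99.918% (shNT) and 99.906% (shSCD1) of values were within 0.1 reads of whole reads, which were recovered by dividing by the step of 1 read. CPM was computed from these reads.

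The filter was 1 CPM in 1 of the libraries or more, and 1 CPM was added for log2 ratios. Genes with 0 reads were set at 3 reads per library for lower bounds, which leave out the counting error of the other library. Reads carry no molecular identifiers, so intervals cover counting error only. Positions, gene types and shared exonic bases came from GENCODE 29 (GRCh38), and promoters from the RefSeq table. The text names SCD; the 30 highest and 30 lowest ratios among protein-coding genes of at least 5 CPM with under 50% of exonic bases shared; genes with 0 reads in 1 library; the 20 most abundant genes; up to 6 genes per list; and the 10 highest and lowest non-coding genes. Other list members named were chosen after their values were seen, and some genes the rule takes are not reported here. The members, the 50 lists (1925 genes) and the motifs were chosen with earlier results of these data known.

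On simulated data for this comparison (30148 genes) 100% of reads were recovered, 81 of 87 genes changed 3-fold and 0 of 113 changed 1.5-fold passed 2-fold, and 0 of 13598 unchanged genes did. The simulated reads held counting error only, with no variation between cultures or library preparations. These counts therefore give no rate of false calls for the real libraries. Alternatives were the pseudocount, the filter, the scaling, the fold threshold, protein-coding genes alone, the authors' values and, chosen after seeing the data, genes with under 50% of exonic bases shared and the edgeR fit over both lines. Software was Python 3.11.15, pandas 2.3.3, scipy 1.17.1, R 4.3.3 and edgeR 4.0.16.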

Additional observations from a re-analysis of the deposited data

Results flagged for a closer look

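Of the 6 genes higher in UMUC3 and lower in SW780 and the 11 with the opposite pattern, 9 are named protein-coding genes with under 50% of exonic bases shared and are given here. Each rests on 1 library per group, and the difference between lines was not tested. THBS1, thrombospondin 1, had a log2 ratio of −2.81 in UMUC3 (13.98 and 1.14 CPM) and 1.55 in SW780 (519 and 1519 CPM). IL32 had −1.42 and 1.33. IFIT1, of the interferon response, had −1.31 (5.30 and 1.54 CPM) and 1.12 (62.9 and 138 CPM). SH3RF2, a ubiquitin ligase, had −1.19 (51.7 and 22.1 CPM) and 1.25. ZNF608, a zinc finger gene, had −1.12 and 1.37, from at most 4.46 CPM in any library. DGKI, a diacylglycerol kinase, had −1.10 and 1.06, from at most 3.86 CPM. CPS1, carbamoyl phosphate synthetase of the urea cycle, had −1.05 (10.5 and 4.58 CPM) and 1.09 (9.33 and 21.02 CPM). IDH1 went the other way, with 1.55 in UMUC3 (22.3 and 67.1 CPM) and −2.21 in SW780 (320.0 and 68.5 CPM), so both shSCD1 libraries ended near the same level. SHH, the hedgehog ligand, had 1.63 (0.833 and 4.67 CPM) and −1.23 (4.02 and 1.14 CPM).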

How the results depend on the processing

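Within UMUC3 no paired analysis was possible because each group holds 1 library and the labels give no replicate numbers, and no library could be left out. The only fit that pairs libraries is the edgeR one, which blocks on the line. SCD stayed lower under every alternative run, and the authors' log2 fold change for it is −2.23 against −2.13. The counts of 347 higher and 306 lower genes moved with the pseudocount and the threshold: a pseudocount of 5 CPM gave 83 and 98, and a 3-fold threshold 54 and 86. A filter at 5 CPM gave 222 higher and 204 lower genes, and a GFOLD of at least 1 in size gave 210 and 357. With ratios centred on the median gene 308 were higher and 328 lower, so which side held more turned round. With TMM factors the counts were 340 and 309, among protein-coding genes 273 and 273, and among genes with few shared bases, chosen after seeing the data, 303 and 269. With a pseudocount of 0.5 CPM they were 515 and 403. Of 172 named genes past 2-fold 80 fell under it with the pseudocount of 5 CPM and 6 with centring. None changed sign under the pseudocounts, the centring, TMM or the authors' values, but that is no check. A pseudocount cannot turn a sign, the centring and TMM shifts were far smaller than 2-fold, and the authors' values come from the same reads. Centring turned the sign of 4 list medians and TMM of 1, with shifts of at most 0.038. The filter at 5 CPM moved list medians by up to 0.401 and the pseudocount of 0.5 CPM by up to 0.234, with no change of sign. The depth of the libraries limits genes near 1 CPM, where 23 reads in the shallower library decide a ratio.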
